A study of Homo sapiens with 2 samples.

Results

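The integrin and focal adhesion genes were taken from a list of 42 symbols: 13 integrin α subunits, 8 integrin β subunits and 21 proteins of the adhesion plaque, the protein layer that joins integrins to actin. A gene was measured through probe sets whose only listed symbol was that gene. This held for 39 of the 42 genes, among 19775 genes measured on the array, with 119 probe sets in all. ITGB6, FLNA and FLNC had no such probe set and were not analysed here. The genes were selected on the signal differences between these same 2 arrays, with earlier results in view. Their values are therefore a description, and the direction of the list is not independent evidence of anything.

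Both arrays are labelled as RNA of U87, an established human glioblastoma line, grown in DMEM with fetal bovine serum. By its label, the FOXM1 siRNA array came from cells in which FOXM1, a forkhead factor of the cell division cycle, was targeted by transient siRNA transfection. By its label, the non-target array came from cells given a control siRNA with the same Lipofectamine reagent. RNA was taken 48 hours after transfection. Each group holds 1 array of 1 cell line, so no test between the groups was possible, and the siRNA, the culture and the array cannot be told apart. The number of arrays limits the precision.

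Integrins are receptors of 1 α and 1 β subunit that bind matrix proteins outside the cell. Talins and kindlins bind the β tail and switch the receptor to its active state. Kinases, scaffolds and actin-binding proteins then gather at the tail and form focal adhesions, through which a cell grips its substrate, senses stiffness and moves. In glioblastoma, integrins are known for their part in invasion along vessels and white matter tracts.

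The labels were checked first. FOXM1 read 1343 on the array labelled FOXM1 siRNA and 1520 on the array labelled non-target siRNA, a log2 difference of -0.18 in its probe set. The probe sets of a gene differed in their log2 differences with a pooled SD of 0.50 over 5476 genes, and 0.51 over 15 member genes with several probe sets. The FOXM1 transcript thus stood at 0.884 of its level on the non-target array, and its signals do not show the lower level that the siRNA label implies. CDKN2A, a cyclin-dependent kinase inhibitor gene that U87 cells are known to lack, read 421 on the array labelled FOXM1 siRNA and 3467 on the other. CDKN2B read 31.8 against 349.8, and MTAP 76.3 against 619, in the same order. All 3 genes were above the floor (77.7 on the FOXM1 siRNA array and 60.8 on the non-target array) on the array labelled non-target, and CDKN2A was above it on the other array too. The CDKN2A signals are those of its brightest probe set, of the _x_at kind, whose probes can match several transcripts. Its log2 difference was -3.04, and a further CDKN2A probe set had -4.35. These values go against the U87 label for 3 genes on the non-target array, and for CDKN2A on both arrays in that brightest probe set. Whether the arrays held the same cells was not tested. The names FOXM1 siRNA array and non-target array stand for the arrays so labelled, and each direction follows those labels. For ACTB, a control transcript probed at both ends as a measure of RNA integrity, signal at the 3′ end exceeded that at the 5′ end 4.21-fold on the FOXM1 siRNA array and 6.79-fold on the non-target array. Its part in the values below was not tested.

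Most of the integrin and adhesion genes that could be measured were higher on the FOXM1 siRNA array. A gene was represented by its brightest probe set and counted as detected above a floor, the 90th percentile of 135 olfactory receptor probe sets: 77.7 on the FOXM1 siRNA array and 60.8 on the non-target array. Of the 42 genes, 33 were detected, 29 of them on both arrays and 4 on the FOXM1 siRNA array only, where 7.58% of all 13865 detected genes fell in that last class. The other 6 measured genes, ITGA8, ITGA9, ITGB2, ITGB4, ITGB7 and NEDD9, lay below the floor on both arrays. Of the 33, 18 were higher by 2-fold or more, against 16.0% of all detected genes, and 1 was lower by as much, against 15.4%. Either direction took 31.4% of all detected genes. In bulk RNA, fewer cells of a type and less RNA per cell cannot be told apart. At least 8-fold higher were 5 of the 33, against 2.73% of all. The median log2 difference was 1.47 for the 33 genes and -0.02 for all genes. With the hybridisation controls set equal, the median of all genes was -0.30, and the all-gene split changed to 1567 higher and 3200 lower, against 2218 and 2132. The members then gave 17 higher and 1 lower, and their median was 1.17. That setting takes the same constant from every gene before the floor.

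**Figure D1:**
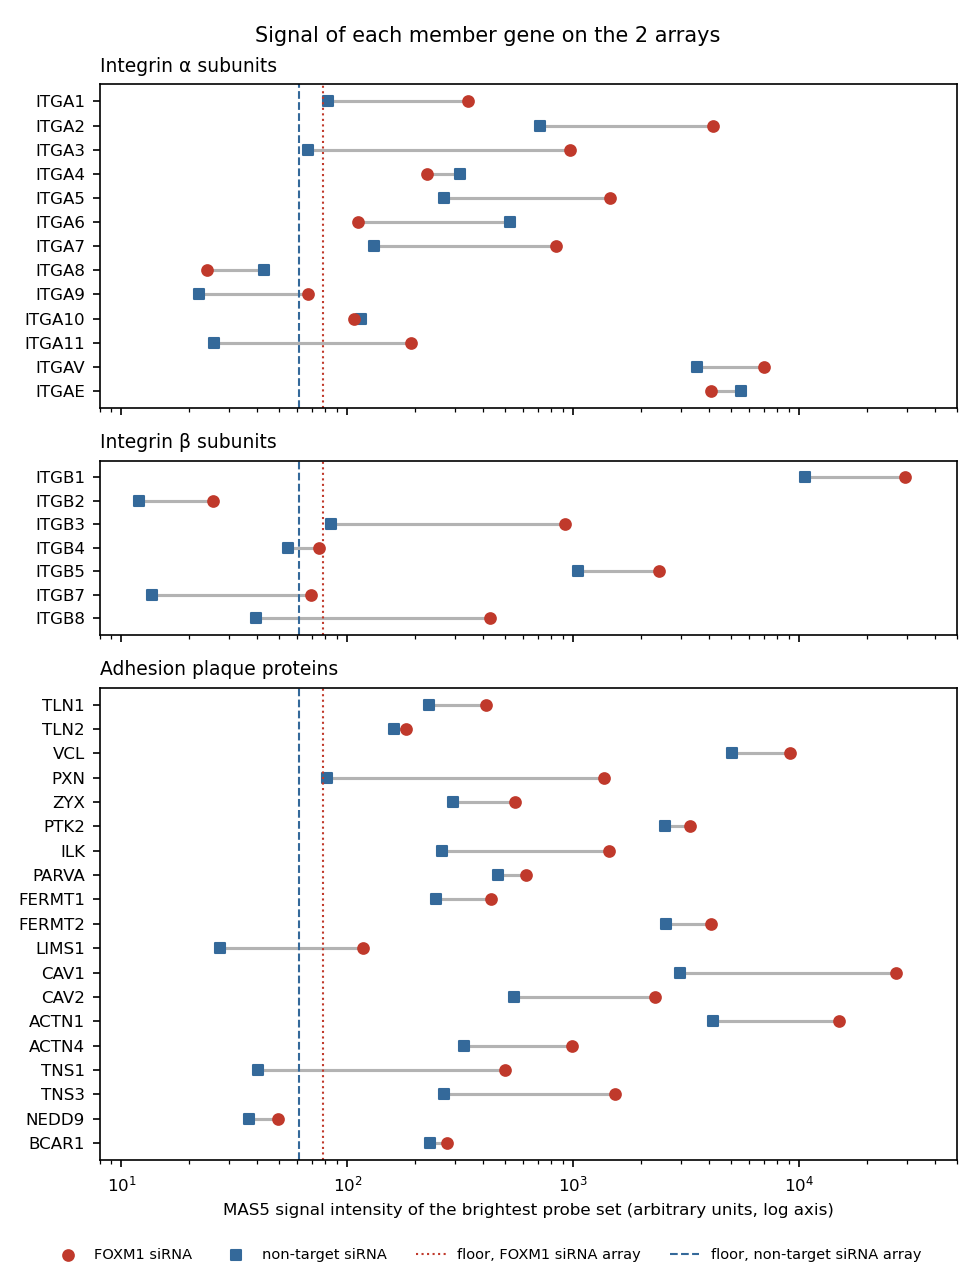
Signal of the brightest probe set of each of the 39 measured member genes on the FOXM1 siRNA array (circles) and the non-target siRNA array (squares), in MAS5 units on a log axis, with the floor of each array as a vertical line. Signals compare the 2 arrays within a gene and not genes with each other. Circles lie right of squares for most genes, and ITGA6 is the gene with the widest gap the other way among those above the floors.

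Among the α subunits, 6 of 11 detected genes passed 2-fold on the higher side in the FOXM1 siRNA array, 1 (ITGA6) on the lower side, and 4 differed by less. The collagen receptors are α1, α2, α10 and α11. ITGA2 read 4150.1 on the FOXM1 siRNA array and 716 on the non-target array, a 5.80-fold difference, and its other probe set gave 5.62-fold (779 against 139). ITGA1 read 343 against 82.2, or 4.18-fold higher, while a further probe set (81.6 against 28.9) was at least 1.34-fold higher. With the median of probe sets, the log2 difference of ITGA1 was 1.24, against 2.06. ITGA11 read 192 against 25.8, below the floor of the non-target array, and was at least 3.16-fold higher. ITGA10 stood apart from these collagen receptors with 108 against 116, a log2 difference of -0.10 that is smaller than the probe set SD.

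The 3 laminin-binding subunits were split. ITGA3 read 968 on the FOXM1 siRNA array and 66.7 on the non-target array, 14.5-fold higher. It rests on 1 probe set, of the _s_at kind, whose probes can match several transcripts. ITGA7, a laminin receptor subunit of muscle, read 839.9 against 131, or 6.42-fold higher, and a further probe set was at least 4.01-fold higher. ITGA6, which forms laminin receptors with β1 or β4, read 111 on the FOXM1 siRNA array and 526 on the non-target array, 4.72-fold lower. Its second probe set, at 6.30 against 92.6, lay below the floor of the FOXM1 siRNA array and was at least 1.19-fold lower. ITGA6 was the only member with a 2-fold or larger difference in that direction.

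The subunits that read the RGD tripeptide of fibronectin and vitronectin are α5, αV and α8. ITGA5, the main fibronectin receptor subunit, read 1462 on the FOXM1 siRNA array and 269 on the non-target array, a 5.44-fold difference. ITGAV read 6963 against 3548, or 1.96-fold, just under the 2-fold threshold. ITGA8 lay below both floors at 23.9 and 42.9 in its brightest probe set. The 3 remaining subunits are α4 and αE, which can bind partners on the surface of other cells, and α9, a receptor of tenascin. ITGA4 read 225 against 316 and ITGAE 4068 against 5526, with log2 differences of -0.49 and -0.44, each smaller than the probe set SD. The 3 probe sets of ITGA4 with a fold ran from -0.72 to -0.26, with an SD of 0.23, and ITGAE has 1 probe set. ITGA9 was below the floor on both arrays, at 67.0 and 21.98 in its brightest probe set. For ITGA8 and ITGA9, 1 other probe set each passed the floor of the non-target array only (6.85 against 80.1 and 16.9 against 80.9).

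All 4 detected β subunits were at least 2-fold higher on the FOXM1 siRNA array, and the 4 other listed genes gave no value. ITGB1, the common partner of most α chains, read 29379 on the FOXM1 siRNA array and 10575 on the non-target array, 2.78-fold higher. Its 3 other probe sets above a floor were higher by 4.88-fold (6231 against 1276), 4.61-fold (11128 against 2412) and at least 2.22-fold (135 against 49.6). ITGB3, the β subunit of the vitronectin receptor, read 916 against 84.6, or 10.8-fold higher. A second probe set above both floors gave 4.82-fold (444 against 92.0), and the 5 others were above the floor on the FOXM1 siRNA array only, with bounds of 1.29- to 4.17-fold. ITGB5, another partner of αV, read 2394 against 1051, 2.28-fold higher, and its 4 probe sets lay between 0.45 and 1.67 (log2). This was the smallest difference counted as 2-fold, and with the hybridisation controls set equal ITGB5 gave 0.88, under the threshold. ITGB8, which with αV activates latent TGF-beta, read 430.1 against 39.5 and was at least 7.07-fold higher. Its 4 other probe sets lay below both floors. ITGB2, the leukocyte β subunit, read 25.5 and 12.0, ITGB4 75.3 and 54.4, and ITGB7 68.8 and 13.6, all below the floors in their brightest probe sets. For ITGB4, 1 other probe set passed the floor of the FOXM1 siRNA array only (79.6 against 31.8) and 1 that of the non-target array only (35.4 against 70.7).

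Set side by side as receptors, 19 αβ pairs known from the literature could be made from the listed subunits, and both subunits were detected for 13. In 6 pairs both subunits were at least 2-fold higher on the FOXM1 siRNA array, all of them β1 receptors: α1β1, α2β1, α3β1, α5β1, α7β1 and α11β1. In another 6 pairs 1 subunit was higher and the other under 2-fold. These were α4β1, α10β1 and the αV receptors with β1, β3, β5 and β8, in which the β subunit differed by 2-fold or more and αV by 1.96-fold. The pair α6β1 held subunits with opposite differences, -2.24 for ITGA6 and 1.47 for ITGB1 on the log2 scale. The pairs share subunits and are not independent of each other, and transcript levels do not give receptor amounts.

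In the adhesion plaque, 8 of 18 detected genes were higher by 2-fold or more on the FOXM1 siRNA array, and none of the 18 was lower by 2-fold. The median log2 difference of the plaque genes was 0.93. All 18 lay above 0, whereas 48.9% of all genes with a fold lay above 0. The values of TLN2 (0.17), BCAR1 (0.26), PTK2 (0.36) and PARVA (0.41) were smaller than the probe set SD. With the hybridisation controls set equal, TLN2 and BCAR1 turned to -0.13 and -0.04.

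The 4 genes of integrin activators had a median log2 difference of 0.74, with none of the 4 at 2-fold in its brightest probe set. TLN1, the main talin, read 411 on the FOXM1 siRNA array and 229 on the non-target array, or 1.79-fold, and TLN2 182 against 161, or 1.13-fold. Each has a further probe set with a larger difference, 3.39-fold for TLN1 (426 against 126) and 3.64-fold for TLN2 (223 against 61.3). The kindlin genes FERMT1 (433 against 246) and FERMT2 (4085 against 2581) were 1.76-fold and 1.58-fold higher, and their probe sets lay close together, with SDs of 0.10 and 0.13 on the log2 scale.

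ILK, a pseudokinase that links β tails to actin with parvin and PINCH, read 1434 on the FOXM1 siRNA array and 261 on the non-target array, 5.49-fold higher in its 1 probe set. PARVA, the α-parvin of that complex, read 618 against 464, or 1.33-fold. All 7 probe sets lay above 0, between 0.41 and 1.72 (log2), and 2 of them passed 2-fold. LIMS1, which encodes PINCH, read 118 against 27.3 and was at least 1.93-fold higher. Probe sets that LIMS1 shares with its near copies LIMS3 and LIMS4 were left out, so its level may be under-represented.

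The kinase and scaffold genes were uneven. PXN encodes paxillin, a docking protein of early adhesions, and showed the largest difference of all members, with 1369 on the FOXM1 siRNA array and 81.6 on the non-target array, or 16.8-fold. Its second probe set lay below both floors (37.9 and 8.11). PTK2, the focal adhesion kinase, read 3279 against 2555, and its 4 probe sets lay between -0.53 and 0.55 (log2). PTK2 was the only member whose probe sets with a fold differed in sign. The scaffold gene BCAR1, a substrate of PTK2 and SRC, read 277 against 231, a log2 difference of 0.26. The second BCAR1 probe set (63.0 against 69.2) was above the floor of the non-target array only and had no fold. NEDD9, a relative of BCAR1, was below both floors in all 5 probe sets, at 49.5 and 36.6 in the brightest.

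Proteins that bind actin made up 4 of the 8 higher plaque genes. ACTN1 encodes an α-actinin that crosslinks actin, and read 15061 on the FOXM1 siRNA array and 4162 on the non-target array, 3.62-fold higher, with 4.94-fold and 6.53-fold in 2 further probe sets. ACTN4 read 986 against 327, 3.01-fold higher. The tensin genes TNS1 and TNS3, whose products bind actin and β tails in fibrillar adhesions, read 497 against 40.0 (at least 8.16-fold higher) and 1536 against 268 (5.72-fold higher). For TNS1, without probe sets of the _x_at and _s_at kinds, the remaining probe set gave a bound of 0.80 on the log2 scale, under 2-fold. VCL, encoding vinculin, read 9122 against 5025, or 1.82-fold. ZYX, encoding the tension sensor zyxin, read 554 against 295, or 1.88-fold, and a second probe set gave 2.56-fold. VCL, ZYX, TLN1, FERMT1, FERMT2, LIMS1 and ITGAV were the 7 members with a value from 1.5-fold to under 2-fold. For LIMS1 this value is a lower bound, and without a floor its log2 difference was 2.10.

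CAV1 and CAV2 encode the caveolins, membrane proteins of caveolae that meet integrin signalling at the tail. CAV1 read 26932 on the FOXM1 siRNA array and 2966 on the non-target array, 9.08-fold higher. Its second probe set gave 9.81-fold (19037 against 1941), and the SD over both probe sets was 0.08. CAV2 read 2294 against 547, 4.19-fold higher, with 2.29-fold and 1.39-fold in 2 further probe sets.

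**Figure D2:**
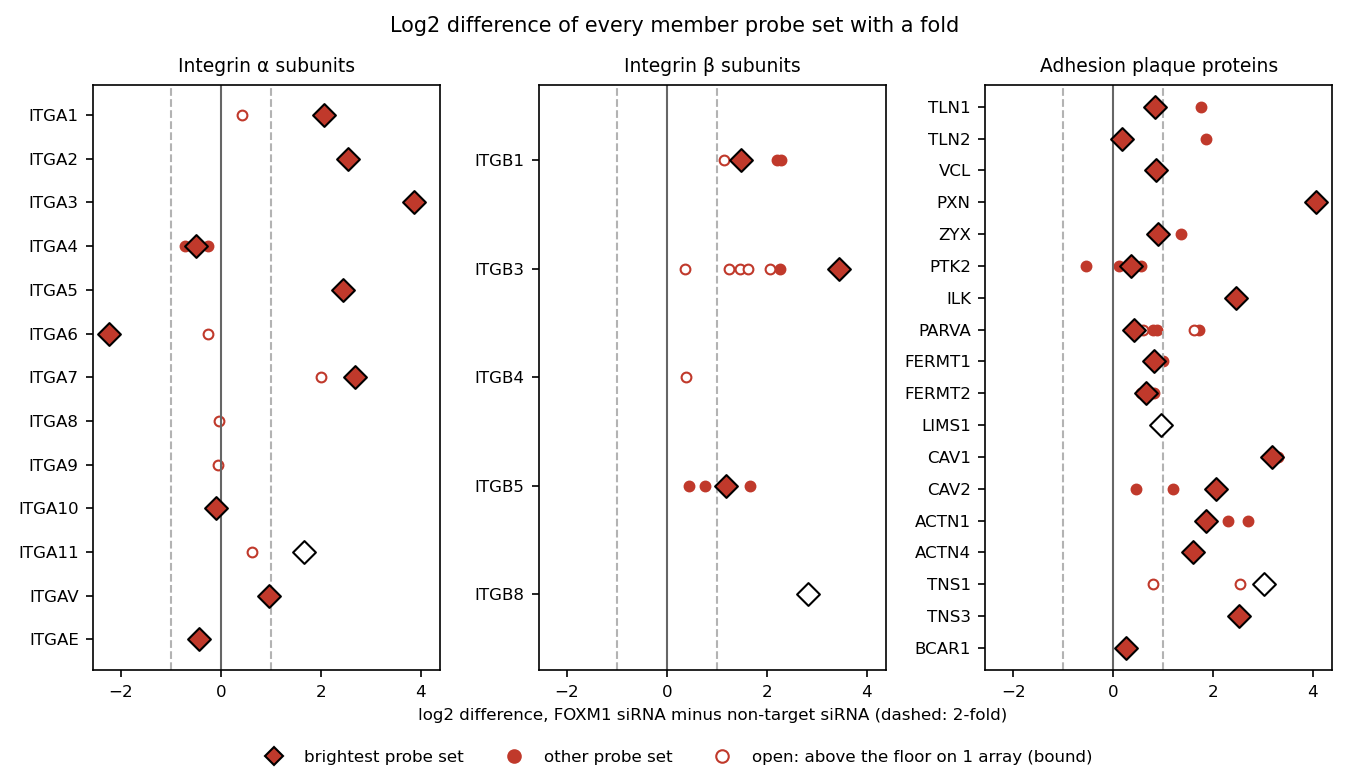
Log2 difference (FOXM1 siRNA minus non-target siRNA) of every member probe set with a fold, by gene and class, with diamonds for the brightest probe set of a gene, circles for others and open symbols for bounds. Points of CAV1, ITGA2 and FERMT2 lie together, while those of ITGB3, TLN2, PARVA and TNS1 spread over more than 1 log2 unit.

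The other probe sets of a gene mostly went the same way. Of the 119 member probe sets, 81 were above a floor and 78 had a fold. Higher by 2-fold or more were 39 of the 81, and 1 was lower by as much, against 15.4% and 13.6% of all 26582 detected probe sets with a single symbol. Of 20 members with several probe sets with a fold, 19 had all of them on 1 side of 0. For 12 genes past 2-fold with several probe sets, every probe set had the direction of the gene, and for 5 of the 12 every probe set also passed 2-fold. Counts of agreement are given without the share over all genes, so the agreement cannot be called particular to the members. Probe sets of a gene share the same 2 RNA samples and are not replicates of the condition.

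Promoter sequences were available from RefSeq (GRCh38.p14) for 33 of the 42 genes, 15 of them among the 18 higher members. The 4 higher members with the largest differences and a sequence, PXN, CAV1, TNS1 and ITGB8, are shown beside ITGA6, the lower member, which was chosen after its value was seen. Each line gives the 250 bases upstream of the first start site listed for the gene, 5′ to 3′ on the gene's strand. Capitals mark matches on either strand to a GC box (GGGCGG), a forkhead core (TAAACA), an AP-1 site (TGAGTCA), a TEAD site (GGAATG) or a CHR element (TTTGAA), the last known from cell cycle promoters. No matches of different motifs overlapped in these windows.
PXN, chr12:120265731-120265980, minus strand: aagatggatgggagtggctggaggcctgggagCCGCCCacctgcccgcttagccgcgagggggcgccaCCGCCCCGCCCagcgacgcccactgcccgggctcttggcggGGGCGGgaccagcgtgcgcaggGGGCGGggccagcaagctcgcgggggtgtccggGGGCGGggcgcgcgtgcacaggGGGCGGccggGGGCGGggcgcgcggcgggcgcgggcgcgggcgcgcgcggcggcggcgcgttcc
CAV1, chr7:116524759-116525008, plus strand: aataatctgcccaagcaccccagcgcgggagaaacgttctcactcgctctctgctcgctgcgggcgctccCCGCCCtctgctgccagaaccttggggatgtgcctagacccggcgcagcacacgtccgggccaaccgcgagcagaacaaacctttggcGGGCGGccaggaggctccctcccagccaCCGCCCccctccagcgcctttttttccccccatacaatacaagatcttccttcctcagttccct
TNS1, chr2:218010276-218010525, minus strand: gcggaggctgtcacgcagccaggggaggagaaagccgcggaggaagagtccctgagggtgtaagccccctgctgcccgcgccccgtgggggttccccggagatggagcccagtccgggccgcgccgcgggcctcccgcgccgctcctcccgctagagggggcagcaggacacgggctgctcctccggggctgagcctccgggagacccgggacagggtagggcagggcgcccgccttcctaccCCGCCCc
ITGB8, chr7:20330650-20330899, plus strand: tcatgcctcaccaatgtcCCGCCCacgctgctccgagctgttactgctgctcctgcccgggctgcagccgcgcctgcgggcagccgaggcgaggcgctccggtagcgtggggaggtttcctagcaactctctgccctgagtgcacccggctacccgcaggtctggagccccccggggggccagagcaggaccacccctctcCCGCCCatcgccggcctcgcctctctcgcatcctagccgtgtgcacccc
ITGA6, chr2:172427086-172427335, plus strand: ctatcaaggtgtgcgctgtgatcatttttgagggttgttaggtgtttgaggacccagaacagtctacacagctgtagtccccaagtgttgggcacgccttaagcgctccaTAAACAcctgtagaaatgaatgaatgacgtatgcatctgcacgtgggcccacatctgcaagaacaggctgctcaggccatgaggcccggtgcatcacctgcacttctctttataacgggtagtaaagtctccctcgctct
The PXN window held 8 GC boxes, a pair of which share a base, and no other match, CAV1 held 3, ITGB8 2 and TNS1 1. The ITGA6 window held no GC box and 1 forkhead core, which starts 140 bases upstream. The other listed ITGA6 window held a GC box. The other listed PXN window held a CHR element and a TEAD site, and a TEAD site was found among the other TNS1 windows. The GC content was 83.6% for PXN, 63.6% for CAV1, 76.0% for TNS1, 71.2% for ITGB8 and 50.8% for ITGA6.

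Over all windows of the higher members, a GC box was found for 13 of 15 genes, against 46.2% of 27305 genes with a promoter in the table. The median GC content of these windows was 69.0% against 58.0% for all promoters, and a GC box is itself made of G and C. Genes with several start sites have several windows, and by window the share with a GC box was 62.5% of 32, against 42.6% of 35116. Among the 18 other members, 11 genes had a GC box. These other members include ITGB6, FLNA and FLNC, which were not measured, ITGA8, ITGB7 and NEDD9, which were not detected, and the lower member ITGA6. A forkhead core was found for 1 of the 15 genes (13.1% of all genes), a CHR element for 4 (16.1%), a TEAD site for 5 (14.3%) and an AP-1 site for 0 (5.19%). By window, the CHR element was in 12.5% of the 32, against 13.3% of all windows, and the TEAD site in 18.75%, against 11.9%. The forkhead core was in 3.125%, against 11.0%, and the AP-1 site in 0%, against 4.20%. A match is a run of letters and not evidence of binding.

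**Figure D3:**
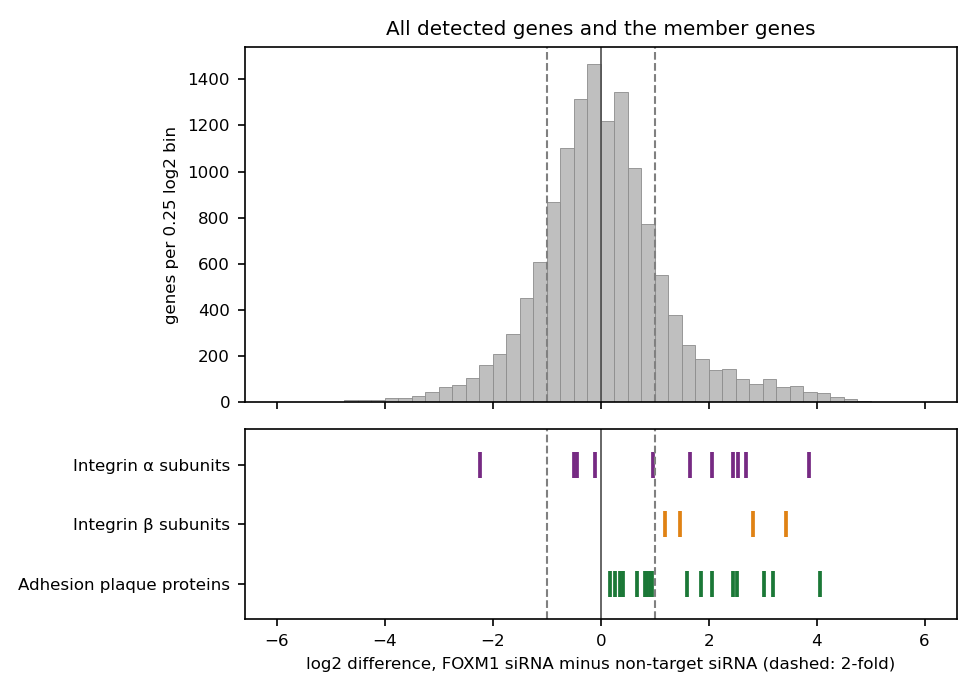
Histogram of the log2 difference (FOXM1 siRNA minus non-target siRNA) of all detected genes with a fold, in bins of 0.25, above tick marks for the 33 detected member genes by class. Dashed lines mark 2-fold. The members spread from -2.24 to 4.07 and most lie right of 0, near which the histogram has its centre.

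Genes of the same pathway outside the list were counted from lists written from general knowledge. The shares to set beside the counts of each of these lists are 16.0% higher and 15.4% lower, over all detected genes. Of 28 detected genes among 32 for other plaque and actin link proteins, 12 passed 2-fold on the higher side and 1 on the lower, with a median log2 difference of 0.76. CSRP1, a LIM protein of actin bundles, read 3556 on the FOXM1 siRNA array and 208 on the non-target array, 17.1-fold higher. TGFB1I1 (Hic-5) and LPXN (leupaxin), the relatives of paxillin, were 10.5-fold (1766 against 168) and 9.36-fold higher (3065 against 328). The second probe set of LPXN gave a log2 difference of -0.11. SORBS2, an adaptor of stress fibres, read 1133 against 73.8, or 15.3-fold, but its 5 probe sets reached down to a log2 difference of 0.70. The lower gene, named after its value was seen, was TES (testin, a zyxin partner), at 652 against 3467 or 5.31-fold lower.

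Signalling genes downstream of integrins had a smaller median difference. Of 30 detected among 34 kinases, adaptors and GTPases, 8 passed 2-fold on the higher side, 1 on the lower side and 21 neither. The median of the 30 was 0.57, and 16.0% of all detected genes were higher by 2-fold or more. With the hybridisation controls set equal, 5 of the 30 were higher by as much, against 11.3% of all genes. With the median of probe sets, 5 of the 30 were higher, against 15.3% of all genes. APBB1IP, the RIAM protein that brings talin to the membrane with RAP1, read 669 on the FOXM1 siRNA array and 103 on the non-target array, 6.502-fold higher. RHOC, a GTPase of cell motility, was 5.09-fold higher (8864 against 1741) and DOCK1, an activator of RAC1, 3.30-fold higher (732 against 222). The 4 detected probe sets of DOCK1 lay between 0.36 and 1.72 (log2). The brightest RAP1A probe set was 4.47-fold higher, while its 4 probe sets ran from -0.59 to 2.34. The lower gene, named after its value was seen, was the phosphatase gene PTPRA, at 127 against 373 or 2.93-fold lower.

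Of 17 detected among 18 regulators and membrane partners of integrins, 9 were higher by 2-fold or more and none of the 17 was lower by 2-fold, with a median of 1.23. With median centring or with the hybridisation controls set equal, 1 gene of that list was lower by 2-fold. The tetraspanin gene CD82 was 12.8-fold higher (2120.4 on the FOXM1 siRNA array against 165 on the non-target array), the urokinase receptor gene PLAUR 12.3-fold (7292 against 591), the endocytic adaptor gene DAB2 8.37-fold (2725.5 against 326) and SDC4, a co-receptor of α5β1, 6.86-fold (5057 against 737). Of 7 detected among 8 other caveolae genes, 4 were higher by 2-fold or more and none of the 7 was lower by 2-fold, with a median of 1.92. The coat genes CAVIN1 and CAVIN3 were 20.4-fold (4464 against 218) and 17.7-fold higher (2607 against 147). EHD2 and EHD1, ATPases at the caveolar neck and in recycling, were 15.6-fold (1036 against 66.6) and 3.79-fold higher (1929 against 509). The 3 probe sets of EHD2 lay between 0.11 and 4.56 (log2). CAVIN2 was below both floors.

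Of 34 detected among 40 integrin ligand genes, 17 passed 2-fold on the higher side, 3 on the lower side and 14 neither, with a median of 1.03. Without a floor, or with a pseudocount of 50 in its place, 6 of these genes were at least 2-fold lower. FBN1, the RGD-bearing fibrillin of microfibrils, was 17.4-fold higher (5742 on the FOXM1 siRNA array against 329 on the non-target array). The collagen genes COL6A3 (23480.0 against 1288) and COL1A2 (8631 against 515) were 18.2-fold and 16.8-fold higher, and TNC, encoding the α9 ligand tenascin C, was 14.1-fold higher (12901 against 914). The 3 lower genes, named after their values were seen, were NID1 (228 against 2636), COL4A1 (177 against 1449) and COL4A2 (451 against 1229). A second probe set had a log2 difference of -0.46 for COL4A1 and -1.61 for NID1. NID1, which joins laminin to type IV collagen, was 11.6-fold lower. Laminin chains of the same list did not share this direction, with LAMB3 5.52-fold higher (385 against 69.8) and LAMC1 1.22-fold higher (5294 against 4342). Among 5 other integrin α genes, of leukocytes and platelets, 3 were above a floor, each on 1 array only, and are named after their values were seen. ITGAX was at least 5.42-fold higher on the FOXM1 siRNA array (329.8 against 12.3), ITGAM read 96.2 against 44.4 and ITGA2B 24.4 against 101.2.

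**Figure D4:**
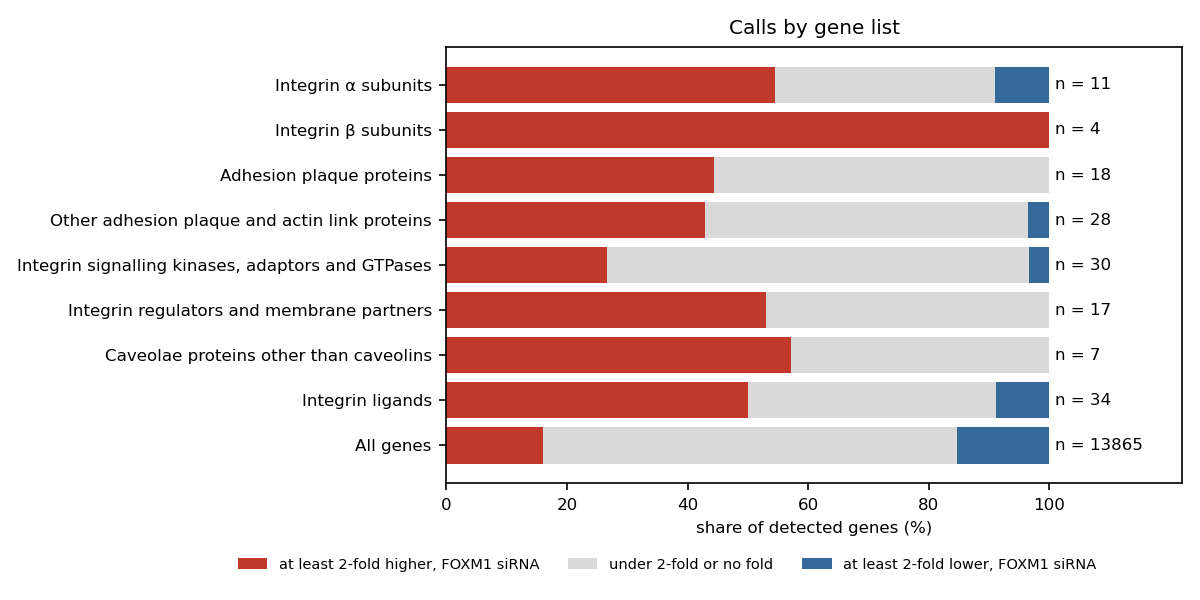
Share of detected genes (percent) at least 2-fold higher, under 2-fold or without a fold, and at least 2-fold lower on the FOXM1 siRNA array relative to the non-target siRNA array, for the 3 member classes, 5 further lists and all genes, with the number of genes beside each bar. Higher calls take 4 of 4 β subunits, 8 of 18 plaque genes and 16.0% of all genes.

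Markers of cell types were read on the same arrays. Of 9 epithelial markers, 5 were above the floor on the FOXM1 siRNA array and 4 on the non-target array, with summed signals of 1305 and 12837. DSP (336 against 9707) and KRT18 (379.7 against 2655) were lower on the FOXM1 siRNA array, and CDH1 (20.9 against 113) was above the floor of the non-target array only. EPCAM (98.8 against 48.1) and CLDN7 (108 against 40.3) were above the floor of the FOXM1 siRNA array only, and KRT8 read 265 against 220.0. KRT19, CLDN4 and ESRP1 were below both floors. Of 9 astroglial markers, 6 and 5 were above the floors, with sums of 42084 and 22653, mostly VIM (40017 against 21179). SLC1A3 (1278 against 874), ALDH1L1 (143 against 115) and OLIG2 (266 against 270) were also above both floors. NES (261 against 54.0) and FABP7 (93.0 against 30.4) were above the floor of the FOXM1 siRNA array only. S100B (2.21 against 87.8) was above the floor of the non-target array only. GFAP and AQP4, which define astrocytes, were below both floors. The 7 measured leukocyte markers summed to 579 and 298. LCP1 (283 against 78.9), CD3D (85.0 against 16.2) and CSF1R (109 against 102) were above a floor, and PTPRC, CD14, AIF1 and TYROBP were below both. The 7 endothelial markers summed to 519 and 179. KDR (147 against 3.48), VWF (119 against 9.86) and PECAM1 (113 against 62.8) were above a floor. Their differences were at least 2.41-fold, at least 1.96-fold and 1.803-fold. CDH5, TEK, ESAM and CLDN5 were below both floors in their brightest probe sets. A further TEK probe set was above a floor, with a log2 difference of 0.90. The part of these marker differences in the integrin and adhesion values was not tested.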

How the data were processed

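RNA of 2 samples, 1 per group, was measured on 1-colour 3' expression arrays. Per the labels' protocols, TRIZOL RNA was checked on a Bioanalyzer, amplified by a 3' IVT kit and biotinylated. Per the submitters' processing notes the authors made the deposited intensities with MAS5, with no version stated in the material used here. They are linear signal intensities for 54675 probe sets, scaled per array, with a 2% trimmed mean of 499.9 on both arrays. Global scaling assumes equal mean signal. The files held no detection calls.

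Probe sets were named through the platform table (42898 listed, 41097 with 1 symbol, 1801 with several, which named no gene; 11777 not in it). Of the single-symbol probe sets, 99.9% had a gene ID in the GRCh38.p14 gene table, used for current symbols. Signals below an array's floor were raised to it, and log2 differences are FOXM1 siRNA minus non-target siRNA. For a gene above 1 floor only, the fold is a bound, written "at least". The brightest probe set by mean log2 signal stood for a gene. Counts use a 2-fold threshold. No SD between samples and no p-value can be given.

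The members, lists and alternatives were chosen with earlier results of these data known. Every member is accounted for. From each further list up to 4 genes with the largest absolute difference above both floors are named. Promoters are shown for 4 members with the largest differences, and protein sequences were not used here. The calculation was tested on simulated data. Results were recomputed with quantile scaling, loess scaling (limma 3.58.1, R 4.3.3, span 0.3), median centring, hybridisation controls set equal, no floor, a floor 2 times as high, a pseudocount of 50, the median of probe sets, no _x_at or _s_at probe sets and a 1.5-fold threshold. A common floor was added after seeing the data. Other steps used Python 3.11.15, numpy 2.4.6, pandas 2.3.3 and matplotlib 3.10.9.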

Additional observations from a re-analysis of the deposited data

How the results depend on the processing

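Under 11 alternatives, the counts by class and the median of the member genes kept their direction and stayed within 1.5 times (counts) or 0.50 on the log2 scale (median), except that 14 plaque genes were higher at a 1.5-fold threshold, against 8 at 2-fold. At the 1.5-fold threshold, 26.1% of all detected genes were higher, against 16.0% at 2-fold. The members' median ran from 1.13 with the median of probe sets to 1.67 without _x_at and _s_at probe sets. Of 19 members past 2-fold, 16 passed it in every alternative that gave them a value. ITGA11 missed it with a floor 2 times as high (a bound of 0.66), ITGB5 with the hybridisation controls set equal (0.88) or the median of probe sets (0.97), and TNS1 without _x_at and _s_at probe sets (0.80). Another 6 members passed 2-fold in alternatives only. ITGAV did so with loess scaling (1.04), ZYX and TLN2 with the median of probe sets (1.13 and 1.02). PARVA did so without _x_at and _s_at probe sets (1.72). TLN1 passed it without those probe sets (1.76) and with the median of probe sets (1.30). LIMS1 passed it without a floor (2.10) and with a pseudocount of 50 (1.12). The cause was not tested. ITGA3, VCL, ZYX and FERMT2 had no value without _x_at and _s_at probe sets. No paired analysis was possible because each group holds 1 sample, and for the same reason no replicate could be left out. Low signals on the non-target array, close to or below the floor, limit ITGA1, ITGA3, ITGB3, PXN, ITGB8, TNS1 and ITGA11. With a floor 2 times as high, the log2 difference was 1.497 for ITGA1, 2.99 for ITGA3, 2.91 for ITGB3, 3.49 for PXN, 1.82 for ITGB8 and 2.03 for TNS1. Among the further lists, other plaque genes lower by 2-fold numbered 3 with median centring or equal hybridisation controls and 4 without _x_at and _s_at probe sets, against 1, and signalling genes higher by 2-fold numbered 5 with equal hybridisation controls, against 8. The median of the caveolae list was 3.96 without _x_at and _s_at probe sets, against 1.92. Median centring put the median of all genes at -0.16, against -0.02.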
